A study of Mus musculus with 6 samples.

Results

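The rod phototransduction activation cascade is the set of proteins that turns the capture of a photon into an electrical signal in rod photoreceptors, together with the arrestin that ends the response. Its genes were chosen by symbol, as *Gnat1*, *Gnb1* and *Gngt1* for transducin, *Pde6a*, *Pde6b* and *Pde6g* for the rod phosphodiesterase PDE6, *Cnga1* and *Cngb1* for the cyclic nucleotide-gated (CNG) channel, and *Sag* for rod arrestin. All 9 genes were listed, among 11339 genes in the table. RNA was sequenced from whole retinas of 3 *Mll1KO* and 3 WT samples at postnatal day 14 (P14), each pooled from a pair of retinas. *Mll1KO* mice carry floxed alleles of *Mll1* on both chromosomes (MLL1 fl/fl) and a Cre transgene, WT mice are wild type, and the strain is given as C57Bl6/J for both groups. The transgene drives Cre recombinase in retinal progenitor cells, so that cells of other origin keep *Mll1*. In the paper, a few cells in retinas of older *Mll1KO* mice also still held unrecombined *Mll1* transcript. The WT mice were not littermates that carry the floxed alleles without Cre. The comparison asks how the loss of the histone methyltransferase MLL1 from progenitor cells changes gene expression in the maturing retina.

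In the dark, cyclic GMP holds the CNG channel of the rod outer segment open. Light switches the visual pigment on, the pigment activates the α subunit of transducin, and this subunit takes the inhibitory γ subunits off PDE6, which then breaks down cyclic GMP so that the channels close. Transducin, PDE6 and the channel are built from fixed numbers of unlike subunits, each from a gene of its own, and a lack of functional PDE6 β subunit or channel subunits leads to rod degeneration. Cones use a parallel set of proteins encoded by paralogous genes.

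The values are RPKM, the reads of a gene scaled to its length in kilobases and to the total reads of the library. Where a group has 3 values, they stand in the order of samples a, b and c. Recovered library totals were 23836033, 19777205 and 19323512 reads for WT, against 23348923, 19855963 and 17961097 for *Mll1KO*. The cascade gene with the fewest reads in each library still had between 9082 and 13902 reads, so that counting error was small for all 9 genes. Fold changes are log2 differences of RPKM + 1 between *Mll1KO* and WT, tested with limma over all 11339 genes with Benjamini-Hochberg adjustment, and a gene is called at an adjusted p under 0.05. *Kmt2a*, as *Mll1* is now named and the gene targeted here, had an RPKM of 36.1, 36.9 and 34.6 in WT and of 22.9, 20.4 and 22.3 in *Mll1KO*. All 3 *Mll1KO* values lay below all 3 WT values, with a log2 fold change of -0.69 (standard error, SE, 0.05, limma adjusted p = 2.77e-05). Reads from exons outside the floxed region and from cells without Cre remain in this value.

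In *Mll1KO*, 7 of the 9 cascade genes rose and 0 fell, where 8.81% of all genes were called higher and 14.5% lower. The genes that rose were *Gnat1*, *Gnb1*, *Gngt1*, *Pde6a*, *Pde6g*, *Cnga1* and *Sag*, while *Pde6b* and *Cngb1* did not pass the test. The median log2 fold change of the 9 genes was 0.23, beside -0.03 for all genes. In 8 of the 9 genes all *Mll1KO* values lay above all WT values, as they did in 14.6% of all genes, and *Cngb1* was the exception. The 9 genes took up 2.67%, 2.53% and 2.61% of the reads of the WT libraries and 3.21%, 3.23% and 3.16% of those of the *Mll1KO* libraries. The groups did not overlap in this share, whose mean was 0.595 percentage points higher in *Mll1KO* (two-sided exact permutation p = 0.1, the lowest possible with 3 against 3 samples). In these bulk samples, more rods among the cells and more of these transcripts per rod cannot be told apart.

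RPKM depends on the total of each library, and the count of genes that rose depended on that scaling. In all, 2643 genes were called, 37.8% of them higher, while upper-quartile and median-of-ratios scaling gave 51.2% and 53.1% higher and left all 7 cascade genes called. With libraries scaled to an equal mean log2 RPKM over rod genes outside the cascade, 4820 genes were called, 10.8% of them higher, the median of all genes moved to -0.13 and that of the cascade to 0.13, and 4 cascade genes, *Gnat1* (0.28), *Gngt1* (0.25), *Pde6a* (0.37) and *Cnga1* (0.16), were still called higher. Under that scaling *Gnb1* (0.12), *Pde6g* (0.13) and *Sag* (0.095) were no longer called, and *Pde6b* and *Cngb1* changed sign, to -0.007 and -0.045.

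**Figure D1:**
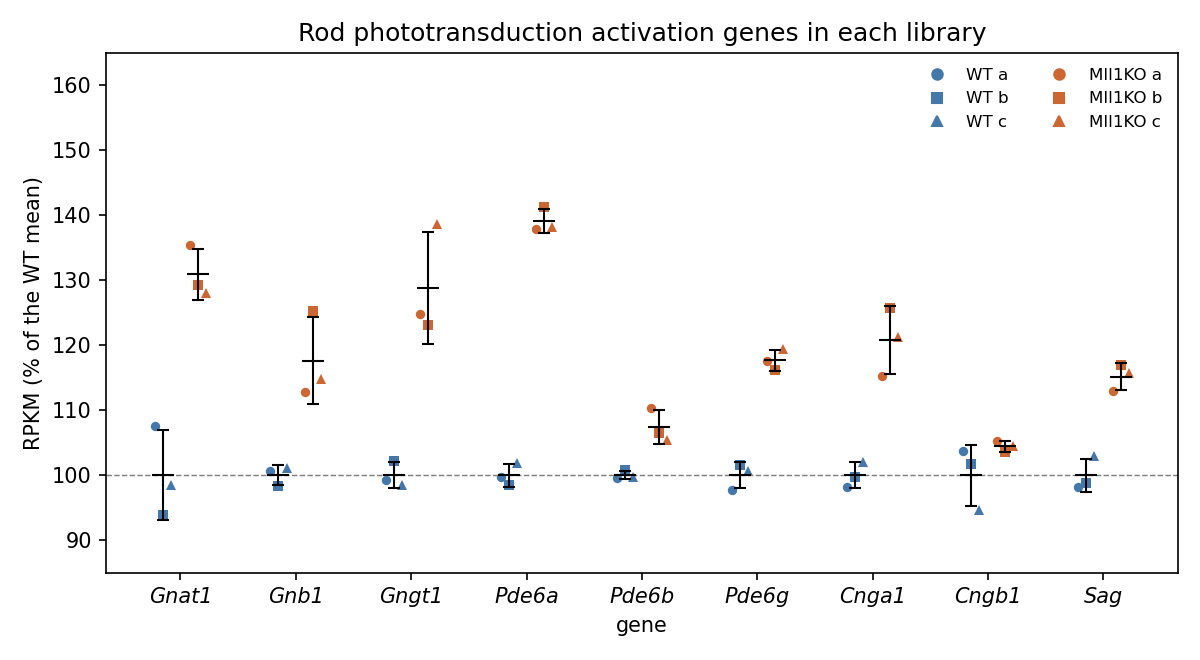
RPKM of the 9 cascade genes in each library, as a percentage of the WT mean of the gene, with WT in blue and *Mll1KO* in orange, a symbol for each replicate letter, and the mean ± SD (n = 3) in black. *Pde6a* reached 139% of WT and *Cngb1* 104%, and the groups overlapped for *Cngb1* only, with libraries scaled to their totals.

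*Gnat1* (ENSMUSG00000034837, chromosome 9) encodes the transducin α subunit, which binds GTP and activates PDE6. Its RPKM was 4762, 4157 and 4360 in WT and 5995, 5720 and 5670.2 in *Mll1KO*. WT sample b was the lowest and the highest WT value, in sample a, still lay below the lowest *Mll1KO* value. The log2 fold change was 0.39 (SE 0.09, limma adjusted p = 0.0112), and leaving out WT sample b ended the call (0.35, limma adjusted p = 0.0512, where the other alternatives went down to 6.96e-05). *Gnat1* had the second highest mean RPKM of all listed genes.

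*Gnb1* (ENSMUSG00000029064, chromosome 4) encodes the β subunit that rod transducin shares with G proteins of other cells, since *Gnb1* is expressed widely in neurons. Its RPKM was 1197, 1169 and 1203 in WT and 1343, 1489.7 and 1366 in *Mll1KO*. *Mll1KO* sample b stood above the other *Mll1KO* samples, and the groups did not overlap. The log2 fold change of 0.23 (SE 0.06, limma adjusted p = 0.0227) had the highest adjusted p of the 7 calls. It did not hold without WT sample b (limma adjusted p = 0.0807), nor without *Mll1KO* sample b (0.0868) or *Mll1KO* sample c (0.0615), nor with the replicate letter as a block (0.0603), the adjusted p over its alternatives ranging from 0.00139 to 0.132.

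*Gngt1* (ENSMUSG00000029663, chromosome 6) encodes the γ subunit of rod transducin, whose lipid anchor holds the complex on the disc membrane. Its RPKM was 135, 139 and 134 in WT and 169.6, 167 and 189 in *Mll1KO*. The WT samples lay close together, *Mll1KO* sample c was the highest, and the groups did not overlap. The log2 fold change was 0.36 (SE 0.05, limma adjusted p = 0.001).

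Ratios of subunits within a library do not depend on how the library was scaled. Each was compared on the log2 scale with an exact two-sided permutation test, for which 3 against 3 samples allow no p under 0.1, and adjusted over 8 ratios. The smallest adjusted p was 0.16. No ratio can pass a threshold of 0.05 in this test with so few samples, and differences are set against the spread between samples instead. For transducin, *Gnat1* over *Gnb1* was 3.98, 3.56 and 3.63 in WT and 4.46, 3.84 and 4.15 in *Mll1KO*. WT sample a lay above *Mll1KO* sample b, so the groups overlapped (log2 difference 0.16, exact permutation p = 0.2, adjusted 0.267). *Gnat1* over *Gngt1* averaged 32.6 ± 2.68 for WT against 33.2 ± 2.78 for *Mll1KO* (SD, n = 3 each), a log2 difference of 0.03 that was smaller than the spread between samples. *Gnb1* over *Gngt1* averaged 8.75 ± 0.301 for WT against 8.02 ± 0.834 for *Mll1KO* (SD, n = 3 each), and here too the groups overlapped, *Mll1KO* sample b at 8.90 lying above WT sample b at 8.41. None of the 3 transducin ratios separated the genotypes, but this does not show that they were unchanged. The log2 differences of *Gnat1* over *Gnb1* (0.157) and *Gnb1* over *Gngt1* (-0.131) were about as large as that of *Pde6b* over *Pde6g* below (-0.132). Their SD within groups was 0.0984 and 0.111, beside 0.0351 for *Pde6b* over *Pde6g*, whose groups did not overlap.

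PDE6 of rods joins a catalytic α and a catalytic β subunit with inhibitory γ subunits. *Pde6a*, the α subunit gene (ENSMUSG00000024575, chromosome 18 from 61220315 to 61289924 on GRCm38), stood at an RPKM of 406, 401 and 416 in WT and of 562, 576 and 564 in *Mll1KO*. The samples of each group lay close together, and the groups were far apart. Its log2 fold change of 0.48 (SE 0.04, limma adjusted p = 0.000101) was the highest of the cascade, and 170 of the 11339 genes had a higher one.

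*Pde6b*, the β subunit gene (ENSMUSG00000029491, chromosome 5 from 108388391 to 108432397), had an RPKM of 359, 364 and 360.4 in WT and of 398, 385 and 381 in *Mll1KO*. All *Mll1KO* values lay above all WT values, by a small margin. The log2 fold change of 0.10 (95% interval 0.01 to 0.20) did not pass the test (limma adjusted p = 0.112). The adjusted p came close to the threshold with upper-quartile scaling (0.053), median-of-ratios scaling (0.0512) and limma-voom on recovered reads (0.05, not called). It was 0.924 with scaling to rod genes. *Pde6g*, the γ subunit gene (ENSMUSG00000025386, chromosome 11), had an RPKM of 657, 683 and 677 in WT and of 789.9, 781 and 802 in *Mll1KO*. The groups did not overlap, and the log2 fold change was 0.23 (SE 0.05, limma adjusted p = 0.00709).

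The ratio of *Pde6a* to *Pde6b* was 1.13, 1.10 and 1.15 in WT and 1.41, 1.498 and 1.48 in *Mll1KO*. Every *Mll1KO* sample was above every WT sample, and the log2 difference of 0.37 was 9.44 times the SD within groups (exact permutation test, two-sided p = 0.1, adjusted p = 0.16). With any 1 library left out, the log2 difference lay between 0.36 and 0.40. *Pde6a* over *Pde6g* was 0.618, 0.588 and 0.614 in WT and 0.712, 0.738 and 0.703 in *Mll1KO*, again without overlap (log2 difference 0.24). *Pde6b* over *Pde6g* was 0.547, 0.533 and 0.532 in WT against 0.504, 0.493 and 0.474 in *Mll1KO*. This ratio was lower in every *Mll1KO* sample (log2 difference -0.13), and the exact permutation p of both ratios was 0.1, adjusted 0.16. Of the 3 PDE6 transcripts, the α subunit gained on both others in *Mll1KO* and the β subunit lost on both others, whichever way the libraries are scaled. These 3 ratios come from the same 3 genes and are not independent of each other.

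The CNG channel of rods is made of CNGA1, which forms the pore, and CNGB1, which modulates it. *Cnga1* (ENSMUSG00000067220, on chromosome 5 like *Pde6b*) had an RPKM of 124, 126 and 129 in WT and of 145, 159 and 153 in *Mll1KO*. The groups did not overlap, and the log2 fold change was 0.27 (SE 0.04, limma adjusted p = 0.00211). *Cngb1* (ENSMUSG00000031789, chromosome 8 from 95239045 to 95306585) had an RPKM of 103, 101 and 94.3 in WT and of 105, 103 and 104 in *Mll1KO*. WT sample a lay within the *Mll1KO* range, and the log2 fold change of 0.06 (95% interval -0.03 to 0.16) did not pass the test (limma adjusted p = 0.32), and it was 0.025 without WT sample c and 0.098 with median-of-ratios scaling. The *Cngb1* locus also gives rise to soluble glutamic acid-rich proteins of the rod outer segment, and the value of the gene holds all its transcripts together.

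The ratio of *Cnga1* to *Cngb1* was 1.20, 1.24 and 1.37 in WT and 1.39, 1.54 and 1.47 in *Mll1KO*. WT sample c came close to *Mll1KO* sample a, but the groups did not overlap. The log2 difference of 0.21 was 2.4 times the SD within groups (exact permutation test, two-sided p = 0.1, adjusted p = 0.16).

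*Sag* (ENSMUSG00000056055, chromosome 1) encodes the arrestin that binds the activated, phosphorylated pigment and ends its coupling to transducin. Its RPKM was 441, 444 and 462 in WT and 507, 525 and 519 in *Mll1KO*. The groups did not overlap, and the log2 fold change was 0.20 (SE 0.05, limma adjusted p = 0.0108). *Sag* over *Gnat1* was 0.0926, 0.107 and 0.106 in WT and 0.0845, 0.0918 and 0.0916 in *Mll1KO*. The lowest WT value, in sample a, lay just above the highest *Mll1KO* value (log2 difference -0.19, exact permutation p = 0.1, adjusted p = 0.16).

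**Figure D2:**
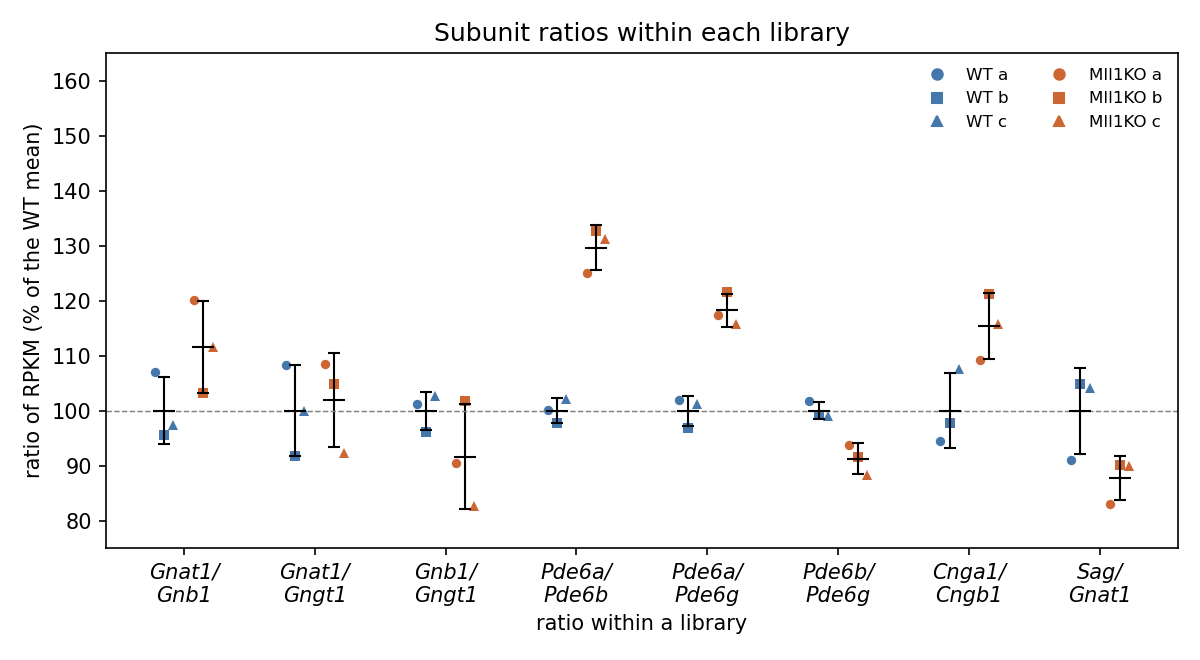
Ratio of the RPKM of 2 genes within each library, as a percentage of the WT mean of the ratio, with WT in blue, *Mll1KO* in orange, a symbol for each replicate letter, and the mean ± SD (n = 3) in black. The groups do not overlap for the 3 PDE6 ratios, *Cnga1* over *Cngb1* and *Sag* over *Gnat1*. They overlap for the 3 transducin ratios, which vary more between samples of a group.

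By mean RPKM in WT, the cascade genes followed the order *Gnat1*, *Gnb1*, *Pde6g*, *Sag*, *Pde6a*, *Pde6b*, *Gngt1*, *Cnga1* and *Cngb1*, from 4427 ± 308 to 99.6 ± 4.70 (SD, n = 3). No neighbours in this order overlapped in the 3 WT samples, the closest being *Gngt1*, whose lowest value was 134, and *Cnga1*, whose highest was 129. In *Mll1KO*, *Pde6a* stood above *Sag* in every sample. RPKM divides by a gene length, which as recovered from the values equalled all exons of the gene joined for 5 of the 9 genes and was shorter for *Gnat1*, *Gngt1*, *Pde6a* and *Cnga1*. It exceeded the length of the principal transcript by a factor of 5.18 for *Sag*, 2.97 for *Gngt1* and 2.57 for *Pde6g*, and fell short of it for *Gnat1* (0.947) and *Pde6a* (0.985). Per kilobase of principal transcript, an alternative chosen after seeing the data, the WT level of *Sag* was 2325 ± 59.1 and that of *Pde6g* 1730.4 ± 34.5 on the RPKM scale (SD, n = 3), both above *Gnb1* at 1615 ± 24.2. On that scale *Pde6b*, at 649 ± 4.23, stood above *Pde6a*, at 402 ± 7.15, and *Gngt1*, at 403 ± 7.97, did not differ from *Pde6a* beyond the spread between samples. So the level of a subunit ratio depends on the length used, while its difference between genotypes does not. No exon base of the 9 genes lay in an exon of another gene, and at most 3.28% of their 50-base stretches, in *Sag*, also occurred in transcripts of other genes.

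Each step of the cascade has a cone counterpart, and 6 of the 8 cone paralogues rose in *Mll1KO* while 0 fell (all genes: 8.81% higher, 14.5% lower), with a median log2 fold change of 0.28, beside -0.03 for all genes. They were *Gnat2*, *Pde6c*, *Pde6h*, *Cnga3*, *Cngb3* and *Arr3*. *Pde6h* was not called without WT sample a (limma adjusted p = 0.057) or *Mll1KO* sample c (0.06), with alternatives from 0.0045. *Cngb3* was not called without any 1 of the libraries other than *Mll1KO* sample a, its adjusted p reaching 0.153, nor with the replicate block (0.0817). With scaling to rod genes, *Pde6h* and *Cngb3* were not called and *Gngt2* was called lower. *Gnb3* at -0.01 and *Gngt2* at -0.11 did not pass the test (limma adjusted p = 0.854 and 0.206), and *Gnb3* is also expressed in ON bipolar cells, as a partner of their G protein. *Gnb3* changed sign with upper-quartile and median-of-ratios scaling and went to -0.12 with scaling to rod genes (limma adjusted p = 0.0641). *Gngt2* went to -0.05 without *Mll1KO* sample b.

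Against their cone paralogues, rod genes moved unequally. *Gngt1* over *Gngt2* was 4.09, 3.86 and 3.89 in WT and 5.23, 5.69 and 5.54 in *Mll1KO*, without overlap (log2 difference 0.47, exact permutation p = 0.1, adjusted over 9 pairs 0.225). *Gnb1* over *Gnb3* was higher in all *Mll1KO* samples as well, at 7.09 ± 0.145 against 5.97 ± 0.241 (SD, n = 3). In *Gngt2*, 12.5% of the exon bases also lay in exons of *Abi3*. *Pde6b* over *Pde6c* went the other way, from 8.29, 8.47 and 8.57 in WT to 6.91, 6.67 and 6.06 in *Mll1KO*, and the groups did not overlap (log2 difference -0.37). *Sag* over *Arr3* was lower in all *Mll1KO* samples, at 6.74 ± 0.369 against 9.33 ± 0.93 (SD, n = 3), a log2 difference of -0.47. The exact permutation p of these pairs was 0.1, adjusted 0.225, and no pair could go lower. The 5 other pairs overlapped between the groups, among them *Gnat1* over *Gnat2* (log2 difference 0.07) and *Pde6a* over *Pde6c* (0.005). The largest difference among these 5 was that of *Cngb1* over *Cngb3* (-0.30, 1.77 times the SD within groups, exact permutation p = 0.2, adjusted 0.36).

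**Figure D3:**
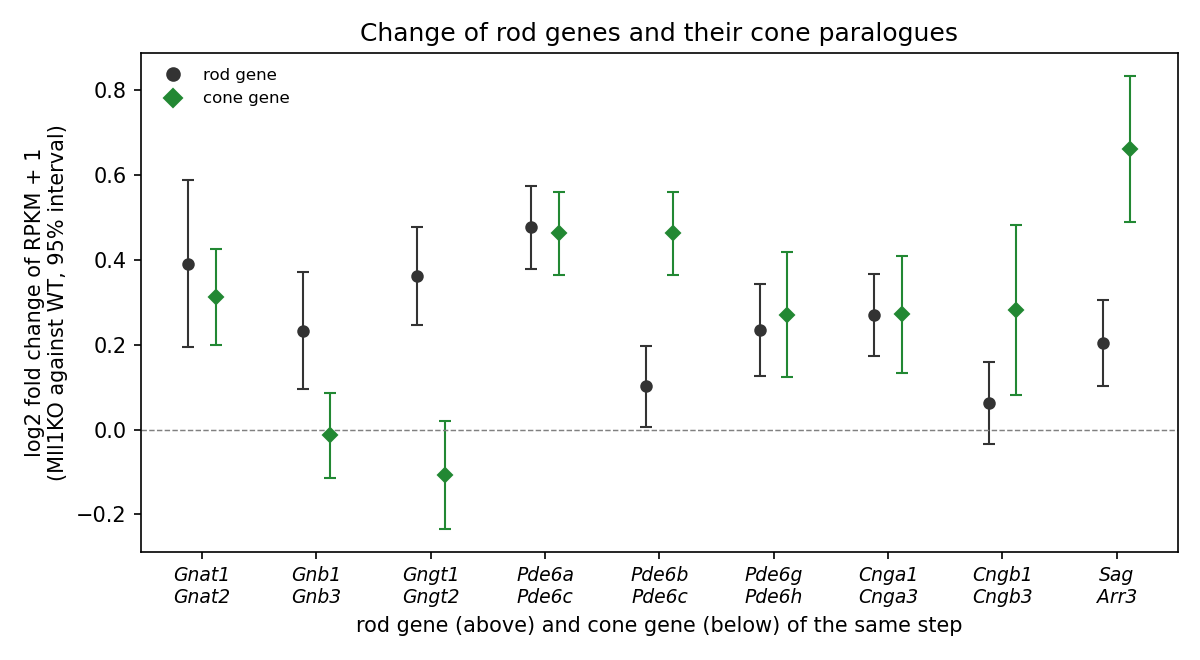
Log2 fold change of RPKM + 1 (*Mll1KO* against WT, libraries scaled to their totals) of each rod gene (circles) and the cone gene of the same step (diamonds), with 95% intervals from limma. *Pde6a* and *Pde6c* lie side by side at 0.48 and 0.46, while *Pde6b* at 0.10 lies below *Pde6c* and *Sag* at 0.20 below *Arr3* at 0.66.

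Cascade proteins depend on partners for folding, lipid attachment, transport and the structure of the disc. Of 12 such genes, 4 rose and 0 fell in *Mll1KO*, against 8.81% and 14.5% of all genes, with a median log2 fold change of 0.10, beside -0.03 for all genes. They were *Slc24a1*, the sodium-calcium exchanger that sits with the CNG channel (0.36, limma adjusted p = 0.000656), *Prph2* (0.29, 0.0041) and *Rom1* (0.25, 0.0125) of the disc rim, and *Unc119*, which carries the transducin α subunit (0.19, 0.0143). The calls of *Rom1* and *Unc119* were lost with scaling to rod genes and without *Mll1KO* sample b, 2 of the 12 genes then being called in either case (limma adjusted p = 0.0521 and 0.0543), and that of *Unc119* also without WT sample b (0.0545) or *Mll1KO* sample c (0.064), the adjusted p of *Rom1* and *Unc119* reaching 0.0873 and 0.206. *Rom1*, *Prph2* and *Slc24a1* are themselves among the rod genes that set the scaling to rod genes, so their values under it are not independent of it. *Fnta*, a subunit of the farnesyl and geranylgeranyl transferases, had the lowest value of the partner list, -0.04, which became positive without WT sample c.

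Of the 9 genes for recovery from light, 7 rose and 0 fell, against 8.81% and 14.5% of all genes (4 of the 9 were called with scaling to rod genes), with a median of 0.23 equal to that of the cascade to 2 decimals. *Guca1a*, a calcium sensor of guanylate cyclase, had the highest value of these, 1.55 (SE 0.10, limma adjusted p = 1.43e-05), with an RPKM of 138, 125 and 169.5 in WT and of 393, 466 and 405 in *Mll1KO*. *Rcvrn*, which encodes recoverin, had the lowest, 0.08, and was not called. Of 16 listed rod genes outside the cascade, 7 rose and 2 fell, to be read against the same shares, with a median of 0.17, from *Samd7* (-0.52, limma adjusted p = 0.00141) to *Esrrb* (0.36, limma adjusted p = 0.000697). This list shares *Slc24a1*, *Prph2* and *Rom1* with the subunit partners, so 3 of its 7 genes that rose are counted above as well. *Cabp4* is not among the listed genes.

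The gene families of transducin and PDE6 have other members. Of 20 listed G protein subunit genes other than those of rod and cone transducin, 1 of which is also among the recovery genes and 1 among the bipolar cell markers below, 1 rose, *Gnai2* (0.24, limma adjusted p = 0.00302), and 5 fell (all genes: 8.81% higher, 14.5% lower), with *Gng4* the lowest (-0.81, limma adjusted p = 8.99e-05) and a median of -0.10. Of 15 listed phosphodiesterase genes other than PDE6, 2 rose and 2 fell, against 8.81% and 14.5% of all genes, with *Pde8a* the highest (0.47, limma adjusted p = 0.00084) and *Pde5a* the lowest (-0.36, limma adjusted p = 0.0195). The value of *Pde5a*, whose mean RPKM was 1.62 in WT, depended on the pseudocount (-0.602 with 0.1 and -0.132 with 5). Its call was lost without WT sample a (limma adjusted p = 0.063) or WT sample c (0.0634). The call of *Gnai2* was lost with scaling to rod genes, under which 14 of the 20 G protein subunit genes and 4820 of all 11339 genes were called. With upper-quartile and with median-of-ratios scaling, 4 of the 20 were called, against 2440 and 2402 of all genes.

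Markers of other cells moved between the groups alongside the cascade. Of 13 bipolar cell markers 7 fell and 0 rose, where 14.5% of all genes were called lower and 8.81% higher, and their summed RPKM was 604, 598 and 591 in WT and 507, 506 and 519 in *Mll1KO*. Of 6 listed horizontal cell markers 5 fell, from a sum of 129, 129.9 and 124 to 88.8, 91.0 and 99.7, with *Tfap2b* the most abundant, and of 8 listed ganglion cell markers 7 fell, from 529, 489.6 and 516 to 414, 367 and 338, with *Sncg* the most abundant. Of 10 amacrine cell markers 2 rose and 4 fell, and the sum was 415, 401 and 418 in WT and between 400 and 446 in *Mll1KO*. *Tfap2b* is in both the horizontal and the amacrine list and is counted among the genes that fell in each. Of 9 Müller glia markers 5 rose and 1 fell, with a sum of 1125, 1107 and 1197 in WT and 1430.0, 1491 and 1455 in *Mll1KO*. *Glul*, the most abundant, made up 202 of the 316 RPKM by which the mean of this sum was higher. None of these listed markers was at 0 in any library, which largely follows from the authors' filter, since it removed genes with few reads. The part of these shifts in the higher values of the cascade was not tested.

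With all 6 libraries, scaled to their totals, no listed marker of tissue next to the retina or of microglia was called. Many of the chosen markers were not listed, with 5 of 9 left for the retinal pigment epithelium, 1 of 6 for the lens and 4 of 8 for microglia. Of 5 listed retinal pigment epithelium markers, led by *Ttr*, 0 were called in either direction (all genes: 8.81% higher, 14.5% lower). Their sum varied between samples of the same group, at 175, 103 and 254 in WT and 93.3, 187 and 95.6 in *Mll1KO*. *Pmel*, the lowest of them (-1.48, limma adjusted p = 0.113), was called lower without WT sample b (-2.23, 0.0123) or *Mll1KO* sample b (-2.03, 0.0451). In either case 2 of the 5 markers were called, against 1704 and 1953 of all 11339 genes. Without WT sample c, *Pmel* went to -0.91 (limma adjusted p = 0.311). The only listed lens marker, *Cryaa*, had an RPKM of 6.54, 6.61 and 7.51 in WT and of 32.1, 12.4 and 7.28 in *Mll1KO*, and was not called. Of 4 listed microglia markers, led by *C1qb*, 0 were called (all genes: 8.81% higher, 14.5% lower), with sums from 15.8 to 18.3 over the 6 libraries. *C1qb* itself, at -0.125, went to -0.220 under scaling to rod genes and was then called lower (limma adjusted p = 0.0299). The fit that dropped *Mll1KO* sample c called it lower too, at -0.203 (0.0495). These fits each called 1 of the 4 markers, against 4820 and 1757 of all 11339 genes. Without *Mll1KO* sample c, *Cryaa* was called higher (1.42, limma adjusted p = 0.0146, against 0.42 and 0.107 without *Mll1KO* sample a), while the count of 7 cascade genes called fell to 6 with the loss of *Gnb1*. The part of these tissues and of microglia in the values of the cascade was not tested.

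Among 5297 genes outside these lists with a mean RPKM of at least 10, the 5 whose values over the 6 libraries lay closest to the mean profile of the cascade were *Syn2*, *Camk1d*, *Sfxn5*, *Hcn2* and *Lrrc73*. Their root mean square distance from that profile was between 0.0122 and 0.0218 on the log2 scale. Their log2 fold changes were between 0.23 and 0.28, which follows from choosing genes by closeness to that profile. *Syn2*, with a mean RPKM of 9.62 in WT and 11.9 in *Mll1KO*, passed the minimum of 10 only through *Mll1KO*. Of the cascade itself, *Pde6g* lay closest to the mean profile, at 0.0275, with 8 outside genes closer, and *Pde6a* lay farthest, at 0.109, with 993 outside genes closer. The mean profile holds the values of each cascade gene and of no outside gene, which favours the cascade genes in this comparison.

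Promoters of rod genes are bound by the homeodomain factor CRX and the leucine zipper factor NRL. RefSeq promoter sequences on GRCm38.p6 were matched for 6 of the 9 genes, *Sag*, *Gnb1*, *Cnga1*, *Pde6b*, *Gngt1* and *Cngb1*, and not for *Gnat1*, *Pde6a* and *Pde6g*. The letters TAATCC, a CRX and OTX type motif, were searched on both strands in windows from 250 bases before to shortly after the RefSeq start of each gene, and so were the letters TGCTGA, part of the NRL recognition element. TAATCC occurred in 4 of the 6 windows, those of *Gngt1*, *Cnga1*, *Cngb1* and *Sag*, and in 7.06% of all windows and 5.82% of windows of genes in the table. TGCTGA occurred in 2 of the 6, those of *Pde6b* and *Sag*, against 19.5% of all windows and 15.4% of windows of genes in the table. *Sag* held both. Of 13 windows of rod genes outside the cascade, 1 held TAATCC (7.69%) and 0 held TGCTGA, and of 5 windows of cone paralogues, 1 held TAATCC and 0 held TGCTGA. *Pde6b* and *Cngb1*, the 2 genes that were not called, and *Sag*, which was, are shown by the 250 bases before their RefSeq starts, 5′ to 3′ on the strand of the gene, with these motifs in capitals. The stretches lie outside annotated exons, at chr5:108388123-108388372 on the plus strand for *Pde6b*, chr8:95306586-95306835 on the minus strand for *Cngb1* and chr1:87803430-87803679 on the plus strand for *Sag*. The RefSeq start of *Pde6b* lies upstream of the GENCODE start given above, while those of *Cngb1* and *Sag* are the same in both.
Pde6b: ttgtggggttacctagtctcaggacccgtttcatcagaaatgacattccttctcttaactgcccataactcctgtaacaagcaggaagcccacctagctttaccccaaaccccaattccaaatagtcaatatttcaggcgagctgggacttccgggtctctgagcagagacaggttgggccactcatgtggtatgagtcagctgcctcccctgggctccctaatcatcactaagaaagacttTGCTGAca
Cngb1: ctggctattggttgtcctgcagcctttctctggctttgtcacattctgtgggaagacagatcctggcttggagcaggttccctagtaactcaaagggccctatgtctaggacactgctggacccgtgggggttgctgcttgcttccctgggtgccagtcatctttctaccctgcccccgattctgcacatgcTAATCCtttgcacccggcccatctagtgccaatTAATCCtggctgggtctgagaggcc
Sag: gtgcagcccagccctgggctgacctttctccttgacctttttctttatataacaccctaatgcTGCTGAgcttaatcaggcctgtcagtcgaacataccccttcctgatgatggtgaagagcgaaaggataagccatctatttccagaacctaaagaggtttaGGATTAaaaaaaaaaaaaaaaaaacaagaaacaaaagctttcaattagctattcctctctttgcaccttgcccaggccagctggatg
*Cngb1* held TAATCC at 2 places, 58 and 25 bases before the RefSeq start, and *Sag* held it on the other strand, read as GGATTA, 87 bases before the start. TGCTGA began 8 bases before the RefSeq start of *Pde6b* and 187 before that of *Sag*. A match of letters is a description of the sequence, and binding was not measured here.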

How the data were processed

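Per the submitters' processing notes, the authors aligned reads to mm10 with STAR 2.0.4b and counted them per gene with featureCounts 1.45, and the study's methods name an Ensembl release written for another build. Genes without a minimum CPM in most samples were removed. From the counts the authors computed the deposited RPKM, scaled to gene length and library total. The deposited table also holds the authors' comparison with edgeR (log fold change, mean abundance, p-value and FDR), which was not used. The authors used edgeR on counts, while RPKM calls for a log scale, so here limma 3.58.1 (R 4.3.3) with a variance trend was run on log2(RPKM + 1), a scale that understates changes of low genes.

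Of 11404 lines, 11339 gene IDs were unique, and 11323 matched GENCODE vM21 (GRCm38). Library totals and gene lengths were recovered as the values that gave whole reads within 0.005 reads, for 100% of genes. For 53.3% the length was the joined exon length of the annotation, and otherwise the shortest length that fitted and kept the gene above the authors' CPM minimum, which is too short where the reads of a gene share a factor. The members and lists were chosen with earlier results of these data known. Named were the cascade, its cone paralogues, *Kmt2a*, called subunit partners, at most the highest and lowest gene of each other list (subunit partners included), genes that 2 lists share, the most abundant gene of marker lists, and the 5 genes closest in profile. The fit was tested on simulated reads. Ratios used exact permutation tests (scipy 1.17.1). Alternatives were pseudocounts of 0.1 and 5, a mean RPKM of at least 1, upper-quartile, median-of-ratios and rod-gene scaling, limma-voom on recovered reads, the replicate letter as a block, ratios of RPKM + 1, and each library left out. Nothing says that the samples of a group came from separate litters, so p-values measure the spread between these samples. The most abundant marker of 2 lists is not reported here.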

Additional observations from a re-analysis of the deposited data

How the results depend on the processing

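The 9 cascade genes were refitted under 14 alternatives, and *Gngt1*, *Pde6a* and *Cnga1* were called higher in all 14. The count of cascade genes called was 7 in 9 of the 14 alternatives, 6 with the replicate block, and between 5 and 7 with 1 library left out. Scaling to rod genes changed most. It holds the mean of the rod genes level, not each rod gene. It divides all genes of a library by a common factor, so that log2 fold changes of well-expressed genes all moved down by nearly the same amount. It gave 4 called cascade genes, 4820 called genes in all, 2 called subunit partners, 4 called recovery genes, 14 called genes among other G protein subunits and 1 among microglia markers, and it reversed *Pde6b* (-0.007), *Cngb1* (-0.045), *Rcvrn* (-0.034) and *Pcp2* (-0.041), a bipolar cell marker. It also lowered the called partners *Prph2* (to 0.177), *Rom1* (0.146) and *Unc119* (0.080), *Gnai2* (0.130) and the 5 genes closest in profile (0.129 to 0.183) by over 1.5 times. *Gnb3* reversed with upper-quartile (0.017) and median-of-ratios scaling (0.021) and without WT sample b or *Mll1KO* sample a (range -0.043 to 0.009 with 1 library left out). *Pcp2* reversed without WT sample a (-0.003 to 0.126), *Fnta* without WT sample c (-0.095 to 0.020) and *Rgr*, a retinal pigment epithelium marker, without *Mll1KO* sample b (-0.076 to 0.514). Beyond the common shift from scaling to rod genes, the cause of these changes was not tested.

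With 1 library left out, the number of all genes called lay between 1704 (without WT sample b) and 2536, against 2643, with 1757 without *Mll1KO* sample c. The called genes then numbered between 2 and 5 for subunit partners, 2 and 4 for other phosphodiesterases, 0 and 2 for retinal pigment epithelium markers, 0 and 1 for lens markers and 0 and 1 for microglia markers. With all 6 libraries, 6 subunit partners were called with upper-quartile scaling, median-of-ratios scaling and limma-voom, where 2440, 2402 and 2905 of all genes were called. With 1 library left out, the small differences of *Gnat1* over *Gngt1* (0.027, range -0.033 to 0.097), *Pde6a* over *Pde6c* (0.005, -0.027 to 0.051) and *Cnga1* over *Cnga3* (-0.046, -0.093 to 0.036) changed sign, and other ratios that overlapped between the groups moved by over 1.5 times, among them *Gnb1* over *Gngt1* (-0.131, -0.209 to -0.060), *Gnat1* over *Gnat2* (0.070, 0.018 to 0.164) and *Pde6g* over *Pde6h* (-0.056, -0.124 to -0.004). The replicate letters a, b and c are shared by the groups, but samples with the same letter did not deviate together (correlations of deviations from the group means -0.04 for a, -0.19 for b and -0.007 for c). With the letter as a replicate block, 2242 genes were called in all, and *Gnb1* was no longer called (limma adjusted p = 0.0603), nor was *Cngb3* (0.0817).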
